A study of Trachinotus blochii with 12 samples.

Results

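The comparison set 3 Intol_liver libraries against 3 Intol_brain libraries, 6 of the 12 RNA-seq libraries of a study of hypoxia in Trachinotus blochii, the golden pompano, which is farmed in the sea for food. Intol stands for the hypoxia intolerance group, 2-month-old fish that were dying, with floating heads and lost balance, within 1 h at a dissolved oxygen level of 0.9 ± 0.1 mg/L. Fish of both statuses shared 3 tanks of 80, in which oxygen was lowered within 2 h, and all were fasted. The 6 Tol libraries, 3 of liver and 3 of brain, came from fish that were still normal after 24 h, and are used below only where named. Status therefore goes with time in hypoxia, within 1 h for Intol and 24 h for Tol. In any comparison of Intol with Tol below, status and time cannot be told apart. The libraries were chosen by their labels. Of 18490 gene models (predicted genes), 14285 reached 1 in 3 or more of the 6 Intol libraries and were tested, and 4205 were not. The labels do not say whether a library was made from 1 fish or from several, so the p-values measure only the spread between these libraries. No Intol library came from fish at normal oxygen, so a difference below is one between the tissues of dying fish, and how much of it is present without hypoxia was not measured.

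The liver is built mainly of hepatocytes, which store and release glucose, handle lipids and secrete most plasma proteins, among them lipid carriers, clotting factors and complement. A few of these secreted proteins are known to take a large part of liver mRNA. The brain holds many kinds of neurons and glia and is known for expressing a large part of the genome at moderate levels, and it depends on a steady supply of oxygen and glucose, which the liver helps to maintain during stress.

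The values were taken to be FPKM, that is, fragments scaled to the length of a gene model and to the size of its library. Their sums were 581739, 622240 and 612782 in Intol livers and 360680, 363460 and 371084 in Intol brains. They do not give read numbers, so depth is unknown. No file names the gene behind a gene model, so the tissue labels could not be checked against marker genes, and 0 gene models matched the lists of hepatocyte, neuron, glia, blood, pancreas, pituitary and metabolic genes set up for the comparison. Across the tested gene models, log2(value + 1) correlated at 0.982 to 0.991 between livers and 0.979 to 0.991 between brains, and at 0.289 to 0.300 over the 9 liver-brain pairs. Intol brain replicate 3 stood apart from the other brains in a small group of gene models described below. Some results are also given without it, and others only as a range over each library left out.

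Transcript abundance was far more concentrated in Intol liver than in Intol brain. The 10 most abundant gene models of a library held 22.3%, 21.4% and 23.5% of the summed values in the livers, against 5.92%, 5.70% and 5.57% in the brains. The number of gene models that together held 50% of the summed values was 59, 59 and 58 in the livers and 662, 655 and 694 in the brains. The livers reached 90% of the sum with 856 ± 51.5 gene models and the brains with 6370 ± 128 (SD, n = 3). The groups did not overlap in any of these measures. The contrast was not particular to Intol fish. In Tol livers the 10 most abundant gene models held 25.5%, 25.8% and 30.1%, and in Tol brains 5.78%, 5.69% and 5.80%. The number holding 50% was 53, 53 and 42 in Tol livers and 661, 664 and 658 in Tol brains. The single most abundant gene model held 7.75% ± 0.281 of the sum in liver and another held 1.25% ± 0.109 in brain (SD, n = 3). In the livers that gene model stood at 43610, 47993 and 49354 FPKM, while the most abundant one in the brains stood at 4940, 4412 and 4300 FPKM. For the 3 measures tested, the number of gene models at 1 or more, the share of the 10 most abundant and the number holding 50%, the two-sided exact permutation p was 0.1, before and after Benjamini-Hochberg adjustment, which is the smallest that 3 against 3 libraries allow.

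**Figure D1:**
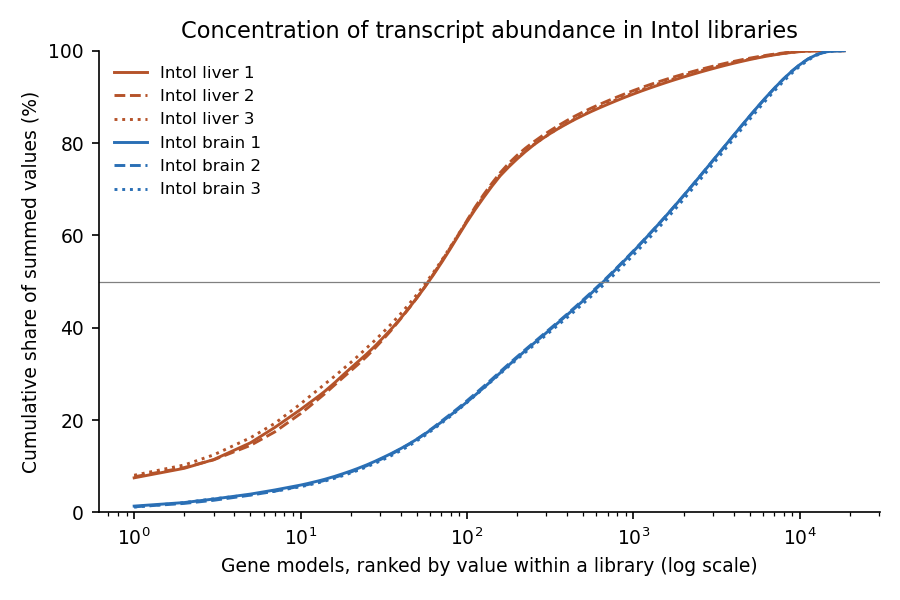
Cumulative share of the summed values (percent, vertical axis) held by the gene models ranked from the most abundant down (horizontal axis, log scale), with 1 line per Intol library and a grey line at 50%. The 3 liver lines cross 50% at 58 or 59 gene models and the 3 brain lines at 655 to 694.

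Fewer gene models reached a measurable level in liver. A value of at least 1 was found for 9319, 8996 and 9248 gene models in the livers and for 13927, 13899 and 14226 in the brains. The difference of the means was -4830 as deposited, -2251 after median-ratio scaling and -5902 with equal sums. The median value over all 18490 gene models was 0.977 ± 0.068 in liver and 5.33 ± 0.249 in brain (SD, n = 3), and 3797 ± 157 gene models were listed at 0 in liver against 1246 ± 26.2 in brain. The order turned at the top of the range. At least 10 was reached by 2592 ± 44.1 gene models in liver and 6357 ± 127 in brain, at least 100 by 475 ± 16.7 in liver and 519 ± 4.73 in brain, and at least 1000 by 130 ± 3.61 in liver and 22.0 ± 1.00 in brain (SD, n = 3). At rank 10 the value was 7601 ± 881 in liver and 1226 ± 76.4 in brain, while at rank 1000 it was 36.2 ± 1.33 in liver and 59.5 ± 0.754 in brain. FPKM is scaled to the size of a library, so a level is relative to the rest of that library. Fewer cells of a type and less RNA per cell cannot be told apart in such tissue samples.

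Nearly every tested gene model differed between the tissues. With limma and a Benjamini-Hochberg adjusted p under 0.05, 1927 of 14285 gene models were higher in Intol liver, 13.5% of those tested, and 11122 were lower, 77.9%, and together they made up 91.3%. The filter also took in gene models through 1 tissue alone, which favours a call in that direction. At least 1 in all 3 brains and under 1 in every liver was found for 4652 gene models, and the reverse for 489. At least 1 in all 6 libraries was found for 7849. The 3 liver values lay wholly above the 3 brain values for 1922 gene models and wholly below for 11123, also 91.3% together. The median difference was 1.66 on the log2(value + 1) scale for the higher and -1.83 for the lower ones. The difference reached 3 for 498 higher and 2436 lower gene models, 8 for 75 higher and 33 lower, and 10 for 22 higher and 6 lower. Changes on this scale understate the fold of low genes.

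The share of higher and lower calls differed with the level, taken as the mean in the tissue where it was higher. This level comes from the same values as the direction, so the shares only describe them. At least 1000 was reached by 130 ± 3.61 gene models in liver and 22.0 ± 1.00 in brain (SD, n = 3). The top level was therefore entered mostly through liver, which favours higher calls there. Among 144 gene models with a mean of at least 1000 in either tissue, 131 were higher in liver and 13 lower, and under quantile normalization 67 and 47. Between 100 and 1000 there were 283 higher and 357 lower of 672, and between 20 and 100 there were 557 higher and 2581 lower of 3336. Between 5 and 20, 631 were higher and 5117 lower of 6227, and below 5, 325 were higher and 3054 lower of 3906.

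The balance of directions depended on how libraries were scaled. The median difference over all tested gene models was -1.46 on the deposited scale. It was -0.22 after median-ratio scaling, which sets the typical gene model present in every library equal. Under that scaling 4999 gene models were higher in liver and 6694 lower, so that lower calls made up 57.2% instead of 85.2%. The same sign was found under both for all 1927 gene models called higher and for 6694 of those called lower, while 1921 turned to higher. Quantile normalization gave 5943 higher and 5623 lower, or 48.6% lower, while setting all sums equal gave 1353 and 12088. A direction stated for a gene model near the typical difference is therefore one within the deposited scale. Leaving out any 1 brain lowered the lower calls to 6239 without replicate 1, 6286 without replicate 2 and 6244 without replicate 3, of 9618, 9616 and 9595 gene models tested, because a gene model absent from liver then could not reach 3 libraries.

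**Figure D2:**
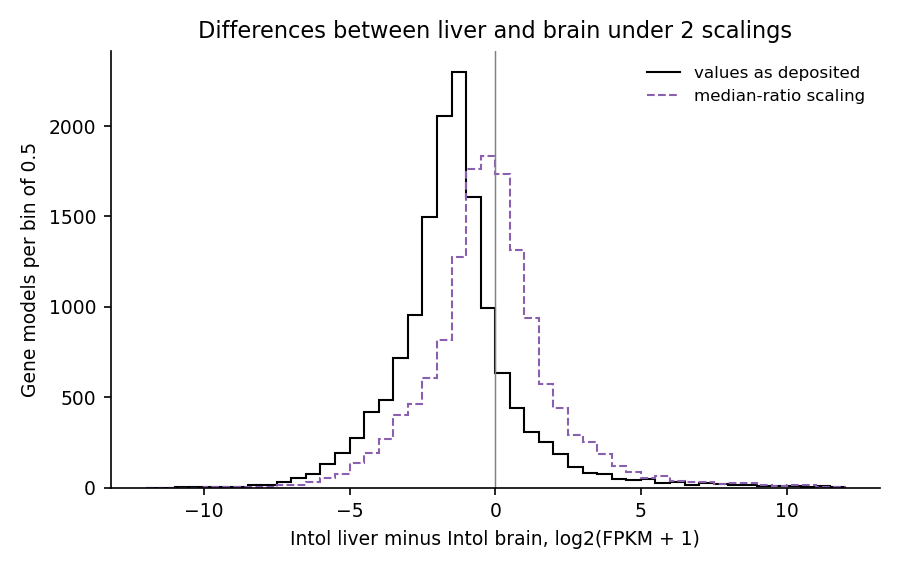
Number of tested gene models (vertical axis) per bin of 0.5 in the difference Intol liver minus Intol brain on the log2(FPKM + 1) scale (horizontal axis), as deposited (solid line) and with median-ratio scaling (dashed line). Most gene models lie below 0 as deposited, with a median of -1.46, and the whole distribution moves to the right under scaling, to a median of -0.22. Bins run from -12 to 12. The few gene models above 12 under median-ratio scaling, among them Trachinotus_GLEAN_10006100 at 12.93 and Trachinotus_GLEAN_10005132 at 12.96, are not drawn.

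Trachinotus_GLEAN_10006100 and Trachinotus_GLEAN_10005132 had the largest differences toward liver on the deposited scale with a pseudocount of 1. Trachinotus_GLEAN_10006100 stood at 10544, 8473 and 8860 FPKM in Intol livers, against 2.39, 4.78 and 0.38 FPKM in Intol brains. Livers and brains did not overlap, and among the brains replicate 2 was the highest and replicate 3 the lowest. The difference was 11.59 ± 0.48 on the log2(value + 1) scale (SE, 95% interval 10.46 to 12.72) with an adjusted p of 2.97e-07 (limma). Trachinotus_GLEAN_10005132 stood at 12005, 9534 and 9542 FPKM in Intol livers and 2.39, 5.29 and 0.89 FPKM in Intol brains, a difference of 11.55 ± 0.40 (SE) with an adjusted p of 1.26e-07. Their order turned under quantile normalization, median-ratio scaling, a pseudocount of 5 and without brain replicate 3. Both were in the top 10 of the liver and shared the order of the brains. Tol fish showed the same contrast, with 10397 ± 443 in Tol livers and 0.733 ± 0.192 in Tol brains for Trachinotus_GLEAN_10006100 (SD, n = 3). The tissue difference did not pass the test of a change with status for either gene model, at -0.97 ± 0.53 (adjusted p = 0.212, limma interaction over 12 libraries) and -0.79 ± 0.49 (adjusted p = 0.265).

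Trachinotus_GLEAN_10011443 had the largest difference toward brain on the deposited scale with a pseudocount of 1. It stood at 0.11, 0.46 and 0.16 FPKM in Intol livers and at 2772, 2703 and 3027 FPKM in Intol brains, at rank 3 of the brain by mean level. The difference was -11.16 ± 0.14 (SE, 95% interval -11.49 to -10.84) with an adjusted p of 3.37e-09 (limma). Trachinotus_GLEAN_10004310, at 0.11, 0.12 and 0 FPKM in Intol livers and 1955, 1776 and 1607 FPKM in Intol brains, had a difference of -10.69 ± 0.12 (SE) with an adjusted p of 3.37e-09. In Tol fish both stood at 0.52 or below in every liver, with brain means of 3056 ± 129 and 2048 ± 137 (SD, n = 3). Their interactions were -0.07 ± 0.17 (adjusted p = 0.815, limma) and 0.29 ± 0.14 (adjusted p = 0.144). The function of these 4 gene models is not known from the sources used here, and reads shared with similar gene models could not be checked.

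More gene models were restricted to brain than to liver. A gene model was called restricted when it had at least 5 in every library of 1 tissue and under 0.5 in every library of the other. By this limit 182 gene models were liver-restricted, 4.89% of the 3721 with at least 5 in all 3 livers, and 1882 were brain-restricted, 20.9% of the 8999 with at least 5 in all 3 brains. These classes were cut from the compared values, so they are described and not tested. Without any 1 library they numbered 186 to 212 and 1912 to 1956. The limits apply to every library, so leaving 1 out can only keep or raise these counts. Median-ratio scaling gave 339 liver-restricted and 1134 brain-restricted gene models, since it raises liver values and lowers brain values against the fixed limits.

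The liver-restricted gene models were few but often abundant. Their mean level in liver ran from 6.18 to 1029 FPKM with a median of 37.8, and 52 of the 182 averaged at least 100. The brain-restricted ones ran from 5.15 to 2834 FPKM in brain with a median of 16.1, and 108 of the 1882 averaged at least 100. The most abundant liver-restricted gene model stood at 1201, 1029 and 858 FPKM in Intol livers and 0.06, 0.17 and 0 FPKM in Intol brains. Liver-restricted gene models held 3.21% ± 0.262 of the summed values in liver and 0.00545% ± 0.00094 in brain (SD, n = 3). Brain-restricted ones held 0.0238% ± 0.0033 in liver and 19.4% ± 0.475 in brain.

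**Figure D3:**
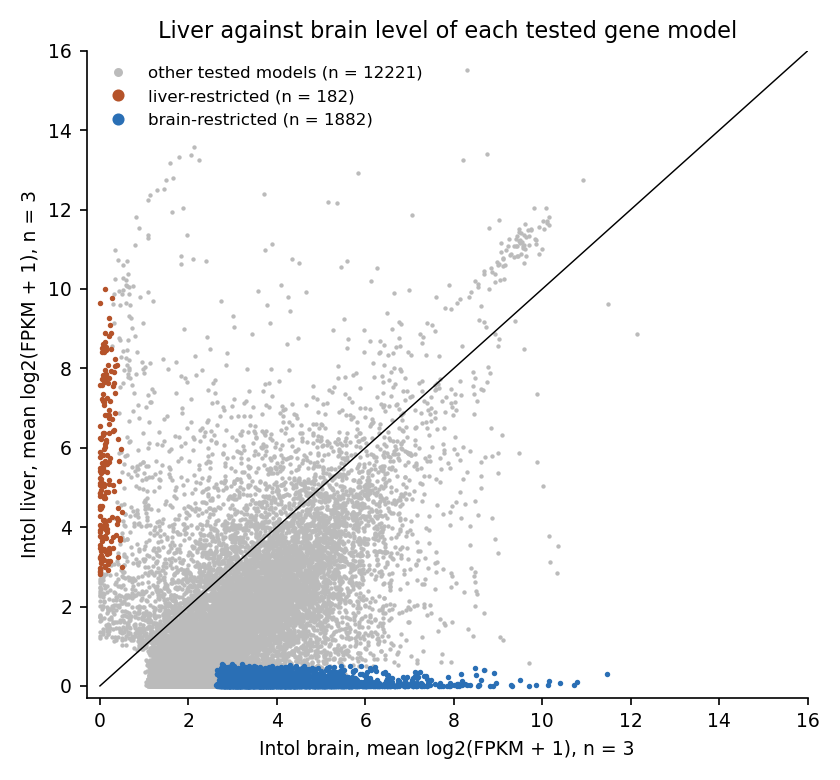
Mean log2(FPKM + 1) of each tested gene model in Intol liver (vertical axis) and Intol brain (horizontal axis), n = 3 libraries each, with the line of equal level. The 182 liver-restricted points (brown) lie along the left edge, the 1882 brain-restricted points (blue) along the bottom, and a compact cluster of abundant gene models lies above the line at the upper right.

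The share of restricted gene models depended on level in liver and hardly in brain. Among gene models with at least 5 in all livers it was 2.97% at a mean of 5 to 20, 6.13% at 20 to 100 and 14.8% at 100 to 1000. Above 1000 it was 1 of 131, and of these 131 the brains had at least 1 in all 3 libraries for 101. The limit of 0.5 is fixed, so a low level in brain keeps a very abundant liver gene model out of the class. Trachinotus_GLEAN_10006100, at 2.39, 4.78 and 0.38 FPKM in Intol brains, was kept out in this way. Under 0.5 in every library of the other tissue were 10 of the 67 gene models of the liver set described below, and 254 of the 308 of the brain set. In brain the share was 20.3%, 22.0% and 20.6% over the same levels and 6 of 22 above 1000. Near the limits, 9 liver-restricted gene models had a lowest liver value of 5 to 6 and 18 with a lowest value of 4 to 5 fell short, and 16 had a highest brain value of 0.4 to 0.5 while 27 with 0.5 to 0.6 fell short. For brain, the numbers just inside and just outside were 173 and 202 at the limit of 5, and 113 and 85 at the limit of 0.5. Limits of at least 1 in a tissue and under 0.1 in the other gave 103 liver-restricted and 2075 brain-restricted gene models.

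The Tol libraries, which the limits did not use, mostly met them too. Of the 182 liver-restricted gene models 153 met both limits in Tol fish, 84.1%, and of the 1882 brain-restricted ones 1787 did. Of the liver-restricted gene models, 23 had a Tol liver under 5, and 2 of these were under 1 in all 3 Tol livers, while 9 had a Tol brain at 0.5 or more. The tissue difference changed with status for 83 of the 182 liver-restricted gene models (45.6%) and 147 of the 1882 brain-restricted ones (7.81%), against 23.9% of the 14817 gene models in the interaction test (limma, adjusted p under 0.05). For a gene model near 0 in 1 tissue the interaction restates the difference between Intol and Tol in the other. The 83 comprised 64 with the larger difference in Intol and 19 with the smaller, but the limit of 5 was set on Intol livers and favours high Intol values. After median-ratio scaling they were 39 and 40 of 79. The 147 brain-restricted gene models fell to 104 after that scaling and to 68 (3.61%) with the replicate number as a block.

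Most of the 100 most abundant gene models of the liver were also abundant in brain. The 100 most abundant gene models of each tissue had 59 in common. Of the liver list 64 were at 100 or more in all 3 brains and 2 were under 1 in all 3 brains, while of the brain list 73 were at 100 or more in all 3 livers and 13 were under 1 in all 3 livers. In total 157 gene models had at least 100 in all 6 libraries, while 475 ± 16.7 reached 100 in liver (SD, n = 3). Below the top 100, sharing at this level was therefore less common. The 157 held 44.2% ± 1.14 of the summed values in liver and 22.6% ± 0.304 in brain (SD, n = 3). The liver share includes the most abundant liver gene model, which alone held 7.75% ± 0.281 and was far lower in brain. Of these, 112 were higher in liver and 27 lower on the deposited scale, with a median difference of 1.42. The ratio of the liver mean to the brain mean ran from 0.104 to 149. It had a median of 2.70 and quartiles of 1.03 and 3.22, and 83 of the 157 had a ratio from 2 to 4. The direction of the group depended on the scaling, with 152 higher and 2 lower after median-ratio scaling, 101 higher and 49 lower with equal sums, and 39 higher and 78 lower under quantile normalization. The identity of these gene models is not given in the files.

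At the top of the brain list, some gene models were shared and others were not. The most abundant one stood at 495, 373 and 555 FPKM in Intol livers and 4940, 4412 and 4300 FPKM in Intol brains. The one at rank 4 stood higher in liver, at 6616, 7872 and 6101 FPKM in Intol livers and 1928, 2271 and 1701 FPKM in Intol brains. Those at ranks 3, 5, 6 and 7 were under 0.5 in every liver. In the liver list the most abundant gene model kept 337, 323 and 285 FPKM in the brains, 0.670% of its mean level in liver, and was at rank 164 there. Those at ranks 2, 4, 5, 6, 8 and 10 of the liver stood at 8.90 FPKM or below in every brain.

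The number of gene models with alike levels in liver and brain depended on the scaling. On the deposited scale the 95% interval of the difference lay within -1 and 1 on the log2(value + 1) scale for 2091 gene models, 14.6% of those tested, and 1008 of these were not called. A pseudocount of 1 draws low values together, so a low gene model can lie within this margin despite a large fold. Of the 14285 tested, 3906 had a mean under 5 in the tissue where they were higher. The difference itself lay from -1 to 1 for 3680 gene models as deposited and for 6644 after median-ratio scaling. In all, 1236 gene models as deposited and 2592 after that scaling did not pass the test, which does not show that their levels were equal.

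Liver transcripts were measured at low levels in the brains. A liver set of 67 gene models was chosen on Tol libraries alone, with a mean of at least 500 in Tol liver and at least 100 times the Tol brain mean, so that the Intol values had no part in the choice. The rule holds the brain level low in Tol fish, so a low level in Intol brains follows in part from it. In Intol livers the set held 36.0%, 35.4% and 36.7% of the summed values. In Intol brains it held 0.148%, 0.158% and 0.122%. Most of the brain sum came from the most abundant liver gene model, described above. The median level of the 67 in brain, as a percent of their own mean in Intol liver, was 0.0418% in brain replicate 1, 0.0765% in replicate 2 and 0.0255% in replicate 3. Only 1 of the 67 was listed at 0 in all 3 brains, and 10 were under 0.5 in all of them.

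The set was split by its level in brain, at a limit chosen after the values were seen. The highest brain was under 2 times the lowest for 19 of the 67, for all 8 with a brain mean of at least 5 and for 11 of the 59 below it. One of the 8 stood at 5681, 3799 and 4789 FPKM in Intol livers and 35.1, 35.3 and 33.3 FPKM in Intol brains, and another at 1792, 1699 and 1665 FPKM in livers and 18.2, 18.8 and 20.8 FPKM in brains. The median percent of the liver level for the 8 was 0.728%, 0.714% and 0.711% in brain replicates 1 to 3. For the other 59, with liver means from 99.3 to 12259 FPKM, the median percent was 0.0387%, 0.0750% and 0.0147%. Brain replicate 2 was at least 5 times replicate 3 for 29 of these 59.

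In the 59, the brain level ran with the liver level in brain replicates 1 and 2 and less so in replicate 3. Across these gene models, which share their libraries and are not replicates, Spearman's rho between the liver mean and the brain value was 0.686, 0.841 and 0.326. The 59 were cut on these same brain values. Over all 67, chosen on Tol values, rho was 0.643, 0.772 and 0.364 in brain replicates 1 to 3. That choice bounded the Tol brain level by the Tol liver level, so these values of rho are not free of it either. The quartiles of the percent of the 59 were 0.0246% and 0.0677% in replicate 1, 0.0572% and 0.103% in replicate 2, and 0.00462% and 0.0632% in replicate 3. The most abundant of the 59 stood at 10670, 12476 and 13632 FPKM in Intol livers and at 4.95, 8.32 and 0.53 FPKM in Intol brains. The next stood at 10932, 9988 and 10824 FPKM in livers and at 4.10, 8.90 and 0.40 FPKM in brains, the same order of the brains again. The order replicate 2 above replicate 1 above replicate 3 held for 44 of the 67 gene models (65.7%), against 13.6% of the 6461 other gene models with a brain mean of 0.2 to 5 and 18.5% of all tested. A brain replicate 2 value at least 5 times that of replicate 3 was found for 29 of the 67 (43.3%) and for 74 of the 6461 (1.15%). Neither count was planned, and the order was taken from these same brain values, so the shares only describe them. The 67 also include gene models with a brain mean outside 0.2 to 5.

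**Figure D4:**
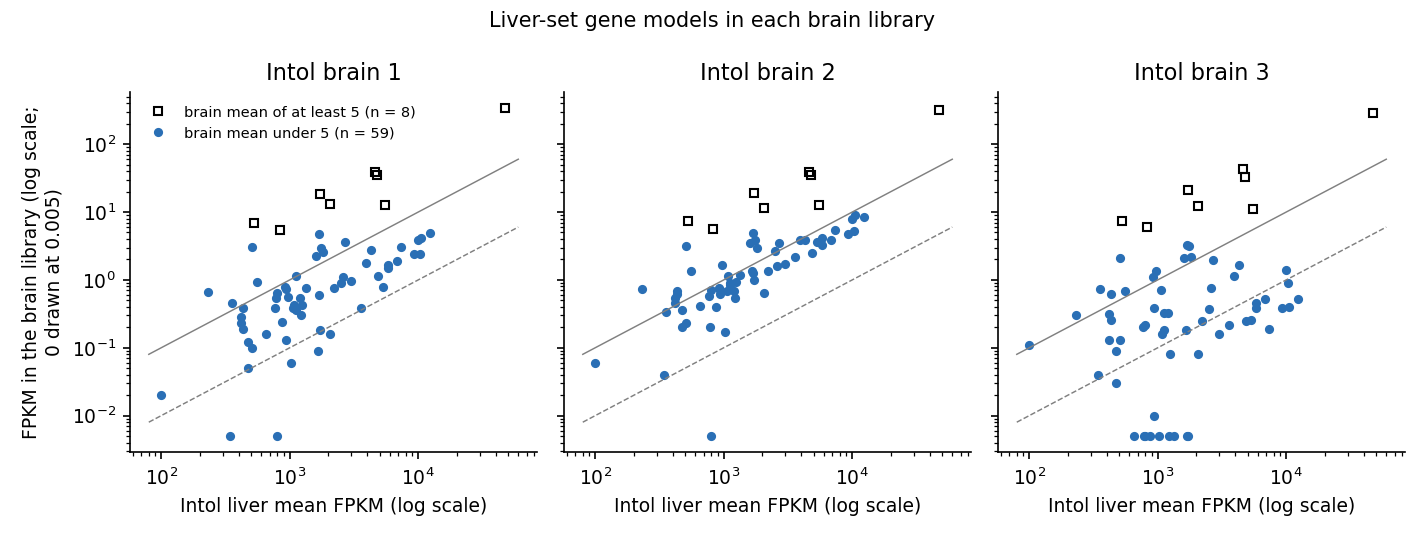
Level of the 67 liver-set gene models in each Intol brain library (vertical axis, FPKM, log scale, 0 drawn at 0.005) against their mean in Intol liver (horizontal axis, FPKM, log scale), with lines at 0.1% (solid) and 0.01% (dashed) of the liver level. The 59 gene models with a brain mean under 5 (filled) lie along the solid line in brain 2, lower in brain 1 and lowest and most scattered in brain 3, while the 8 others (squares) keep their height.

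In Tol brains, which entered the choice of the set, the median percent of the 59 was 0.0144%, 0.00861% and 0.0182% of their Tol liver mean; the value in Intol brain replicate 3 was 0.0147%. The source of these low levels was not tested.

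Brain transcripts were measured in liver near the last decimal of the files. A brain set of 308 gene models, with a mean of at least 50 in Tol brain and at least 100 times the Tol liver mean, held 0.0181%, 0.0152% and 0.0175% of the summed values in Intol livers and 15.2%, 14.8% and 14.2% in Intol brains. The median level in liver was 0.0290%, 0.0234% and 0.0284% of the brain mean in liver replicates 1 to 3. Here too the rule holds the other tissue low in Tol fish, so a low level follows in part from it. Of the 308, 113, 105 and 109 were listed at 0 in liver replicates 1 to 3, 70 were at 0 in all 3 livers, and 254 were under 0.5 in all 3. The highest liver value fell in replicate 1 for 101, in replicate 2 for 64 and in replicate 3 for 73 of the 238 with any value above 0. Of the 18 with at least 1 in all livers, 16 had a highest value under 2 times the lowest. The median values of 0.04, 0.025 and 0.03 FPKM lie near 0.01, the last decimal, so no order of the livers was read from them.

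Among the brains, a group of gene models was high in Intol replicate 3 alone. Of the 6856 gene models reaching 10 in some Intol brain, 18 differed by at least 8-fold between the brains, and all 18 were highest in replicate 3. Their summed value was 1289 there, against 28.7 in replicate 1 and 24.1 in replicate 2. In the 3 Tol brains the sums were 31.9, 28.7 and 38.1, and none of the 18 reached 10 in any of them. Trachinotus_GLEAN_10000799, named after its values were seen, stood at 0, 0 and 0 FPKM in Intol livers and at 0.29, 0.80 and 518 FPKM in Intol brains, and it was at 0.35 or below in Tol brains. In Intol livers 11 of the 18 were under 1 in every library and 2 were above 10 in every library. The liver set had its lowest median in the same brain, as given above.

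**Figure D5:**
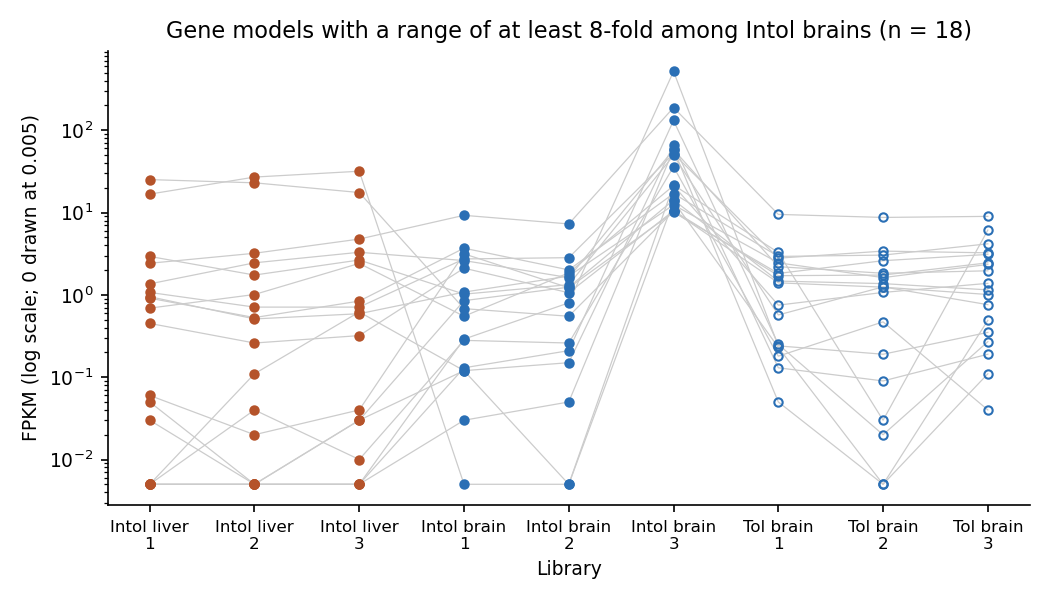
FPKM (vertical axis, log scale, 0 drawn at 0.005) of the 18 gene models with a range of at least 8-fold among Intol brains, in each Intol liver, Intol brain and Tol brain library (horizontal axis), with a line per gene model. All 18 lie at 10.1 to 518 in Intol brain 3, and none exceeds 9.49 in another brain.

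In liver, 33 of the 2949 gene models reaching 10 differed by at least 8-fold between the Intol livers. Of these, 7 were highest in replicate 1, 13 in replicate 2 and 13 in replicate 3. The 13 highest in replicate 3 had a median of 20.2 FPKM there and of 0.31 FPKM for the mean of the other livers. The 13 highest in replicate 2 had a median of 51.0 FPKM there. Replicate 3 was the lowest liver for 18 of the 33, replicate 2 for 12 and replicate 1 for 3. Liver replicate 3 was therefore either the highest or the lowest for most of the 33. On the log2(value + 1) scale the SD between libraries was larger in liver than in brain for 53.6% of all tested gene models. At a mean log2 of at least 3 in both tissues it was larger in liver for 75.7% of 2488 gene models, with a median SD of 0.197 in liver and 0.102 in brain.

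The tissue contrast of Intol fish was wide in Tol fish as well. Among 14040 gene models tested in both, 1467 were higher in liver and 10844 lower in both statuses. Gene models called with opposite signs numbered 155. Of these, 133 were higher in liver in Intol and lower in liver in Tol, with median levels of 10.2 FPKM in Intol liver and 6.40 in Intol brain, and of 3.48 in Tol liver and 6.83 in Tol brain. The other 22 went the opposite way. All 155 passed the interaction test on the deposited scale, which calls of opposite sign on the same libraries make nearly certain. But after median-ratio scaling over the 12 libraries 120 and 65 gene models had opposite signs, of which 1 of the 133 and 0 of the 22 were shared. The size of the difference was at least 1 in both statuses for 7 of the 133 and 0 of the 22.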

How the data were processed

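Per the labels' protocols, RNA with an integrity number above 8 was sequenced as 125-bp paired ends and cleaned reads were assembled with Trinity. How reads were aligned and counted is not given in the sources used here. The authors deposited 1 value per gene model with at most 2 decimals, read here as FPKM from the fractional values and unequal sums, since neither headers nor labels name the unit. A second block in the file of Intol brain replicate 2 equalled replicate 1 in all 18490 values and was not used.

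Log2(value + 1) was fitted with limma 3.58.1 (R 4.3.3), using group means, a variance trend and robust moderation. Adjusted p under 0.05 (Benjamini-Hochberg) was a call, and intervals are at 95%. The interaction used all 12 libraries. Steps were tested on simulated data. For the limma fit, few gene models were changed there and levels lay away from 0, unlike in these data, so gene models near 0 were not covered. Measures per library were compared by two-sided exact permutation tests (SciPy 1.17.1). Named gene models are the 2 largest changes in each direction among calls with liver values wholly above or below the brain values, which 1887 higher and 11054 lower calls met. Members, lists and limits were chosen with earlier results of these data known. Alternatives covered scaling, filter, pseudocount, moderation, a replicate block, limits, all 12 libraries and each library left out. Of all gene models, 293 had the same values as another in all 12 libraries, at 2.79 or below, and 2 of these were tested. Counting such gene models once, the trace set without steady gene models, and scaling over 12 libraries for opposite calls were chosen after seeing the data.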

Additional observations from a re-analysis of the deposited data

Results flagged for a closer look

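The tissue difference in Intol fish differed from that in Tol fish, by the limma interaction test at an adjusted p under 0.05, for 3540 of 14817 gene models. The signed difference, liver minus brain, was the higher in Intol for 2998 of them and the lower for 542. After median-ratio scaling it was the higher for 1500 and the lower for 1704. For a gene model lower in liver, a higher signed difference is a smaller one in size, and over all tested gene models the median was -1.46 in Intol and -1.68 in Tol. Among them, 155 gene models were called with opposite signs in Intol and Tol fish. These calls depended on the scaling. Of the 133 higher in liver in Intol and lower in Tol, 1 was called so after median-ratio scaling over the 12 libraries, and of the other 22, 0.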

How the results depend on the processing

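Depth is unknown, so the counting error of low values, where it weighs most, could not be calculated, and fixed limits on FPKM move with the scaling. The 4 named gene models kept their direction and an adjusted p under 0.05 under every alternative that tested them. Calls numbered 1927 higher and 11122 lower in liver; they became 5943 and 5623 under quantile normalization, 4999 and 6694 after median-ratio scaling, and 6242 lower at a mean of at least 5, where 8347 gene models were tested. With a library left out they ran from 1382 to 1904 higher and from 6239 to 11186 lower. Liver-restricted gene models numbered 103 with the limits of 1 and 0.1 and 339 after median-ratio scaling, and brain-restricted ones 1134 after that scaling. With a library left out they ran from 186 to 212 and from 1912 to 1956, and by the limits they could not fall. The count of gene models over a limit was higher in brain at limits of 0.1 to 100 and higher in liver, by 108, at a limit of 1000. With a library left out, the difference in gene models at 1 or more ran from -4895 to -4725 (-2251 after median-ratio scaling and -5902 with equal sums), in the share of the top 10 from 16.1 to 17.2 percentage points, and in gene models holding 50% from -619 to -600. The liver set in brain averaged 0.0479% ± 0.0261 (SD over 3 brains), from 0.0336% to 0.0592% with a library left out, and 0.0799% with equal sums. The brain set in liver averaged 0.0269%, from 0.0259% to 0.0287%, and 0.0163% with equal sums, 0.0464% with lower Tol limits and 0.00110% with a Tol ratio of at least 1000. The share of gene models with the larger SD in liver ran from 41.4% to 63.4% with a library left out, and was 47.9%, 45.9% and 41.4% without liver replicates 1, 2 and 3, which set an SD of 2 libraries against an SD of 3 and so says nothing of single libraries. The interaction count was 3540, and 3204 after median-ratio scaling. The labels do not say that equal replicate numbers pair a liver with a brain. The deviations from group means correlated at 0.045, 0.095 and 0.125 for numbers 1 to 3. For unequal numbers they ran from -0.108 to 0.040, the highest for liver 1 with brain 2. Every library correlated best with its own number, liver 1 only narrowly, which is a weak hint from the data only. Deviations from a mean of 3 libraries depend on each other, so these correlations are not independent. With the replicate block, 1962 gene models were higher and 11192 lower, and the interaction count was 3261, with 68 brain-restricted gene models in place of 147.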

Other observations

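Gene models with consecutive numbers were looked at within the restricted classes, since neighbouring numbers often mark neighbouring predictions, although positions were not used here. Neighbours were counted once for each restricted gene model they adjoin, so a gene model between 2 restricted ones counts 2 times. Of the 343 neighbours of liver-restricted gene models counted in this way, 18 (5.25%) were liver-restricted themselves, while 0.984% of all gene models were. Of the 3380 neighbours of brain-restricted gene models, 390 (11.5%) were brain-restricted, while 10.2% of all gene models were. Of the liver-restricted gene models 18 of 182 had a neighbour in their class, in runs of at most 2. Of the brain-restricted ones 368 of 1882 did, with 19 runs of at least 3, the longest of 5. Reads shared between neighbouring copies were not tested.

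Of the 4205 gene models that were not tested, 273 were listed at 0 in all 6 Intol libraries and 42 reached 5 in at least 1 library. In the Intol livers 3 gene models were listed at 0 in a library and at 10 or more in another, and in the Intol brains 2 were. In both tissues the most abundant gene models were stable between libraries, with 8 of the top 10 common to the 3 livers and 9 of the top 10 common to the 3 brains.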
